A study of Mus musculus with 6 samples.

Results

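The 9 genes described here, Klf2, Cd38, Nt5e, Cd80, Pdcd1lg2, Hhex, Bank1, Zeb2 and Foxp1, are associated with naive or memory B cells. They were taken by gene name from the 19680 genes of a table of normalized RNA sequencing counts. The libraries were made from germinal center (GC) B cells, the B cells that divide and mutate their antibody genes in lymphoid follicles after immunization. Cells were sorted as B220+ CD38- FAS+ from the spleens of C57BL/6 mice aged 6 to 8 weeks, on day 14 after 100 µg of the hapten-carrier antigen NP-CGG had been given into the peritoneal cavity. All mice carried a Senp1 gene flanked by loxP sites on both alleles (Senp1flox/flox). The 3 WT libraries came from such mice without Cre, and the 3 cKO libraries from mice that also carried Cγ1-Cre. This Cre is driven from the antibody Cγ1 locus and acts in B cells that transcribe that locus, so cells that do not can keep Senp1. Only the cKO mice carried Cre, so effects of Cre and of Senp1 loss cannot be told apart. Senp1 encodes a protease that removes the protein modifier SUMO, and the comparison asks which transcripts change when it is deleted.

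Values are normalized counts (reads divided by a size factor per library), given in the order of replicates 1, 2 and 3 and as mean ± SD with n = 3 libraries. The libraries held 3019152 to 10339054 reads assigned to genes, and the fewest were in cKO replicates 2 and 3. Nothing in the labels ties a library to a mouse of its own, and the p-values here therefore describe variation among libraries, which may be technical. The labels call the WT and cKO mice paired without saying that a replicate number marks a pair, and the fit used here has no pairing. Senp1 checked the labels: it measured 915, 868 and 891 in WT and 373, 425 and 398 in cKO. The Senp1 groups were far apart, with a log2 difference of -1.16 (limma adjusted p = 0.111, DESeq2 adjusted p = 2.78e-09). On the first principal component (33.2% of the variance) replicate 1 of both groups lay at -54.4 and -49.1, and the other libraries at -10.1 to 56.2. The B cell label held in every library: Ms4a1, which encodes the B cell surface protein CD20, measured 7024 to 10741 normalized counts. Gene positions are those of GENCODE M21 on GRCm38.

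A naive B cell recirculates between blood and follicles. KLF2 drives receptors of this traffic, among them the sphingosine-1-phosphate receptor S1PR1, and both KLF2 and CD38 are low in mouse GC B cells. A GC B cell that leaves the reaction as a memory cell regains CD38, and mouse memory B cells are subdivided by CD73 (the product of Nt5e), CD80 and PD-L2 (the product of Pdcd1lg2). HHEX is a homeobox repressor needed for memory B cell formation, ZEB2 is a zinc finger repressor expressed in atypical memory-like and plasma cells, FOXP1 is a forkhead factor that is high in naive B cells, and BANK1 is a scaffold of B cell receptor signalling.

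RefSeq (GRCm38.p6) gave a start site for all 9 genes, 14 sites in all. The sequences before the starts of Klf2, Hhex and Bank1 are shown because Klf2 had the largest fitted difference of the 9, and Hhex and Bank1, like Klf2, were lowest in WT replicate 1. Zeb2 was also lowest there, but the 1 window of it that lies wholly before the annotated gene held no match and is not printed. The sequences run 5′ to 3′ and end before the first annotated base of the gene in GENCODE. Capitals mark matches, on either strand, to the GC box, whose letters are GGGCGG. They also mark the box that many KLF proteins bind, searched as the letters CCACCC and called the KLF box here. The E-box searched, of the kind that ZEB proteins bind, was spelled CACCTG. The core of a MEF2 site was searched last, with the letters TAAATTTA.
Klf2, chr8:72318812-72319032, plus strand: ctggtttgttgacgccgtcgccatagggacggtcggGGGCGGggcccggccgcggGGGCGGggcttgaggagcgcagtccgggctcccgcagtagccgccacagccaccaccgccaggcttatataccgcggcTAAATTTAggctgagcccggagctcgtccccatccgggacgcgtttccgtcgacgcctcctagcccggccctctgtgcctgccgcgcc
Hhex, chr19:37434591-37434809, plus strand: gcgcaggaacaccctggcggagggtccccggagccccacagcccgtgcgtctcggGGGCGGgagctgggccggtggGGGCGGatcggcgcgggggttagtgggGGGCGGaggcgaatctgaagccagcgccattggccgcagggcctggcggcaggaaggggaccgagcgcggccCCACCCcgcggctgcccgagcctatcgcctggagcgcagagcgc
Bank1, chr3:136326067-136326316, minus strand: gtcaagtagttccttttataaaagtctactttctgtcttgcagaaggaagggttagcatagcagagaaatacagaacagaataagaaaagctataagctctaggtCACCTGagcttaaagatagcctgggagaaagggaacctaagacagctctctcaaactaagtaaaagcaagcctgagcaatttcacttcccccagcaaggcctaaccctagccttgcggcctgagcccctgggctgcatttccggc
The MEF2 core was searched after the Klf2 sequence had been seen. Within 250 bases before the start, 1 of the 9 genes, Klf2, held it, and so did 0.502% of the 32851 RefSeq windows of that length. GC boxes stood before Klf2, Nt5e, Hhex, Zeb2 and Foxp1 (5 of 9, against 32.7% of windows), and KLF boxes before 6 of 9 (28.1% of windows). Matches that fall within the annotated gene are counted but not printed, as for the KLF box of Klf2. E-boxes stood before Bank1 and Foxp1 (17.2% of windows). The forkhead letters TGTTTAC were before 0 of the 9 (3.17% of windows). Several genes have more than 1 start site, so the share of genes is not on the footing of the share of windows. A match of letters is a description and no evidence of binding.

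Across genotypes, 8 of the 9 genes had higher fitted values in cKO and Nt5e had lower ones, while 49.8% of the 14678 genes tested had a positive difference. None of the 9 passed: limma called 0 of them at an adjusted p under 0.05, as it did 0% of all genes. At an unadjusted p under 0.05 limma picked 1, Nt5e, against 2.17% of all genes that were lower (318) and 2.98% that were higher (438). Scaled by library totals, that split of all genes was 403 lower and 275 higher (4.62% together), and the median of all genes moved to -0.078. With that scaling 2 of the 9 were under 0.05, Nt5e and Klf2 (limma unadjusted p = 0.0479). On the recovered reads edgeR, DESeq2 and limma-voom also called 0 of the 9, and each had Nt5e alone at an unadjusted p under 0.05. Of all genes, 5.66%, 2.84% and 5.17% were under that threshold by edgeR, DESeq2 and limma-voom, and 0, 20 and 0 were called. The median log2 difference of the 9 was 0.33, and that of all genes tested was -0.0019. Without cKO replicate 2 the median was 0.11 with 5 of 9 higher, without WT replicate 1 it was also 0.11 with 5 of 9 higher, and without cKO replicate 1 it was 0.94 with 8 of 9 higher. The number at an unadjusted p under 0.05 was 4 without WT replicate 3, 3 without cKO replicate 1, and 0 without WT replicate 1 or cKO replicate 2. The share of all genes under those fits was 4.03%, 9.30%, 4.83% and 4.86%, against 5.15% with all 6 libraries. In the authors' deposited table the adjusted p of all 9 was 0.9996 (DESeq2), while 16 genes were called higher and 7 lower at an adjusted p under 0.05.

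Much of the spread lay between libraries of the same group. Apart from Nt5e, all 8 genes lay below their own mean over the 6 libraries in replicate 1 of both groups. All 8 lay above it in WT replicate 3 and in cKO replicates 2 and 3, and 6 of 8 lay below it in WT replicate 2. Of the 9 genes 7 were highest in cKO replicate 2. The high and low libraries therefore cut across the genotypes, and WT replicate 3 stood among the high ones. The mitochondrial share of reads was also lowest in replicate 1 of both groups: 2.71% and 3.66% in replicate 1 of WT and cKO, 7.92% in WT replicate 2, 9.83% in WT replicate 3, and 12.3% and 19.1% in cKO replicates 2 and 3. Replicate 1 also held the most reads in both groups, 10339054 in WT and 9657005 in cKO, against 3019152 to 6528052 in the other libraries. The part of the mitochondrial share or of depth in the values of the 8 genes was not tested.

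**Figure D1:**
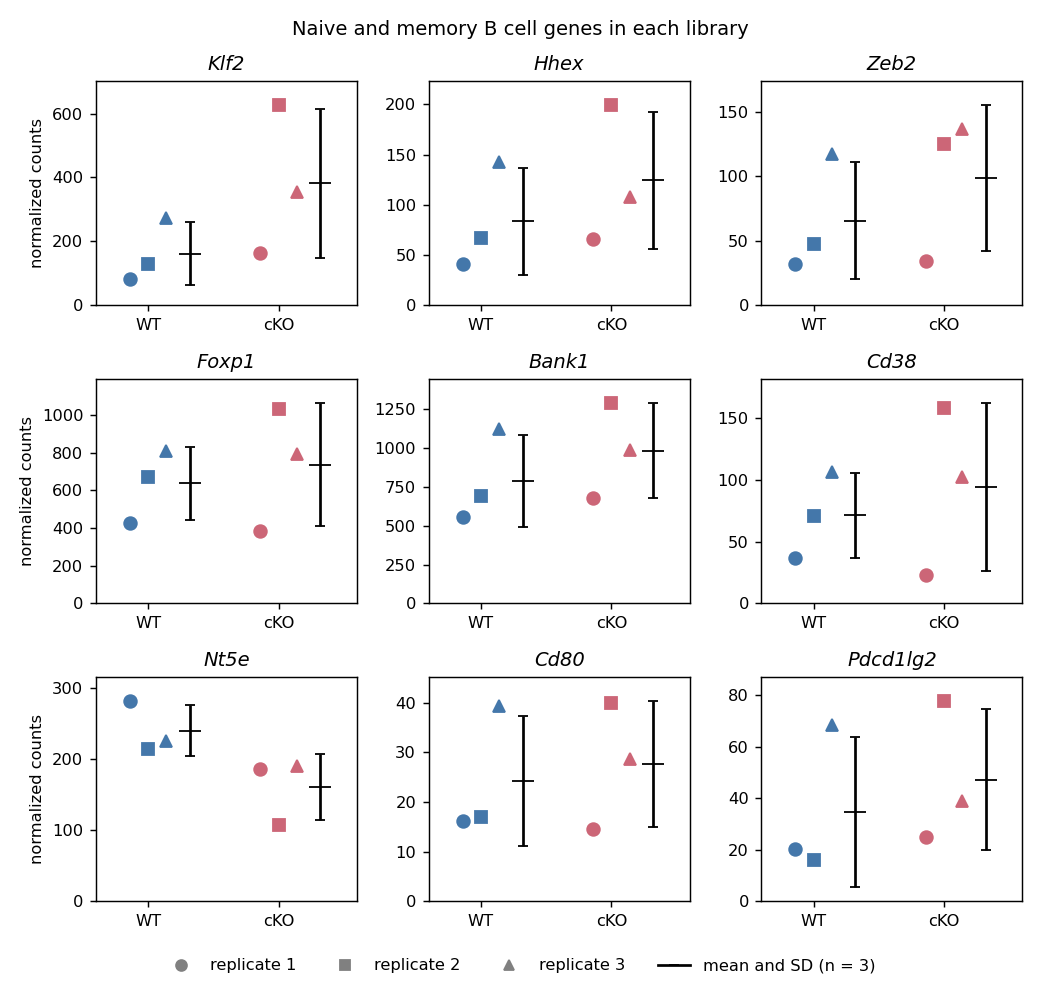
Normalized counts of the 9 genes in each library (vertical axes, from 0), with WT in blue and cKO in red, the symbol showing the replicate number, and the bar the mean and SD of 3 libraries. The groups overlap in every panel except that of Nt5e, where the lowest WT value is 214 and the highest cKO value 190.

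**Figure D2:**
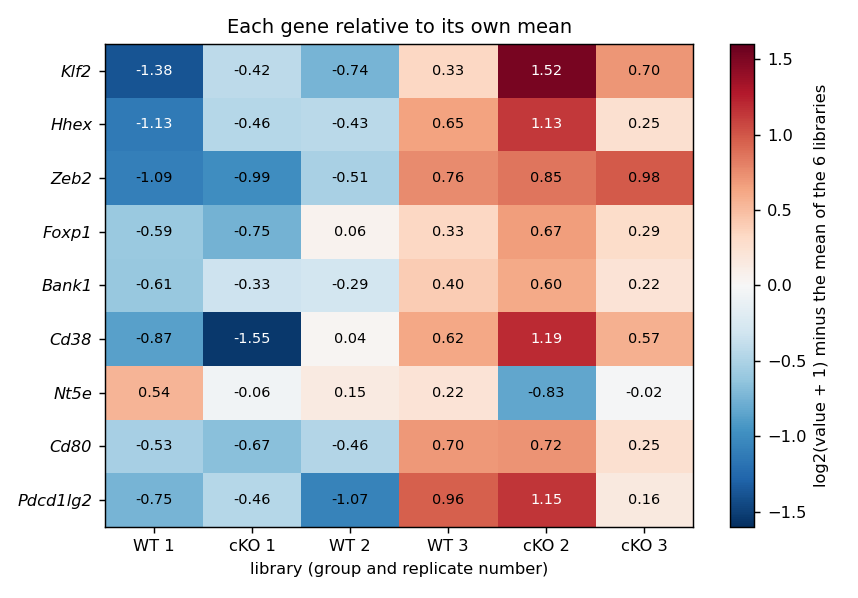
Log2(value + 1) of each gene minus its mean over the 6 libraries, with the libraries from left to right WT 1, cKO 1, WT 2, WT 3, cKO 2 and cKO 3 and the colour scale running from blue (negative) to red (positive). Apart from Nt5e, the columns of replicate 1 are negative for all genes, and those of WT replicate 3 and cKO replicates 2 and 3 are positive.

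Among the transcription factors, Klf2 (chr8:72319033-72321656, plus strand) had the largest difference of the 9. It measured 82.9, 130 and 274 in WT (162 ± 99.7) and 163, 626 and 355 in cKO (381 ± 233). The highest library was cKO replicate 2 and the lowest WT replicate 1, and WT replicate 3 lay above cKO replicate 1, so the groups overlapped. The fitted value was 2.30-fold higher in cKO, a log2 difference of 1.20 (95% confidence interval -0.013 to 2.41, limma adjusted p = 0.915, unadjusted p = 0.0520). Within replicate 1 Klf2 differed by 0.96, against 1.32 within replicates 2 and 3. The difference was positive in all 20 alternatives, from 0.74 without cKO replicate 2 to 1.71 without cKO replicate 1. Its limma unadjusted p was 0.188 without cKO replicate 2 (4.86% of all genes under 0.05). With a term for replicate 1 it was 0.0031 (9.16% of all genes under 0.05).

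Hhex (chr19:37434810-37440731, plus strand), a repressor needed to form memory B cells, measured 40.9, 67.1 and 143 in WT (83.6 ± 52.8) and 65.6, 199 and 108 in cKO (124 ± 68.3). WT replicate 3 was above cKO replicates 1 and 3. The log2 difference was 0.61 (interval -0.54 to 1.76, adjusted p = 0.930), with 0.67 within replicate 1 and 0.58 within replicates 2 and 3. Without cKO replicate 2 or WT replicate 1 it was 0.20, and without WT replicate 3 it was 1.09.

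Zeb2 (chr2:44983632-45117395, minus strand) measured 31.8, 47.9 and 117 in WT (65.6 ± 45.3) and 34.2, 125 and 137 in cKO (98.8 ± 56.2), a log2 difference of 0.56 (interval -0.82 to 1.95, adjusted p = 0.942). Replicate 1 of the groups nearly coincided, with a difference of 0.098, against 0.80 within replicates 2 and 3. Leaving out single libraries gave 0.21 (cKO replicate 3), 0.28 (cKO replicate 2), 0.16 (WT replicate 1) and 1.20 (cKO replicate 1). Zeb2os, an antisense gene, covers 3.27% of the Zeb2 exon bases and had a mean of 3.33 normalized counts. No label gives the strand setting of the counting, so reads of the pair could not be told apart there.

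Foxp1 was among the more abundant of the 9 and had the smallest fitted difference. The gene (chr6:98925338-99522721, minus strand) shares 2.18% of its exon bases with a gene on the same strand, Gm20696. It measured 429, 673 and 812 in WT (638 ± 194) and 384, 1031 and 795 in cKO (736 ± 327), a log2 difference of 0.14 (interval -0.69 to 0.97, adjusted p = 0.979). The sign turned within replicate 1 (-0.16), without WT replicate 1 (-0.12) and without cKO replicate 2 (-0.16), and the value was 0.29 within replicates 2 and 3. Given the width of that interval, the small value does not show equal levels.

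Of the ectoenzymes, which act on nucleotides outside the cell, Nt5e was the 1 gene of the 9 whose groups did not overlap. Its product CD73 makes adenosine from AMP. Nt5e (chr9:88327197-88372092, plus strand) measured 282, 214 and 226 in WT (241 ± 36.4) and 186, 108 and 190 in cKO (161 ± 46.1). Every cKO library lay below every WT library, as for 5.28% of all genes tested, and 6.28% had the reverse order. The fitted value was 1.52-fold lower in cKO, a log2 difference of -0.61 ± 0.24 (SE, interval -1.16 to -0.050). The limma p was 0.0359 unadjusted and 0.915 adjusted, and by p the gene ranked at 504 of the 14678 genes. The replicate 1 libraries alone gave -0.60, and the other 4 libraries -0.61. The value nearest to 0 came without cKO replicate 2 (-0.34, limma unadjusted p = 0.103). With a term for replicate 1 added to that fit, a choice made after seeing the data, it was -0.38 (limma unadjusted p = 0.0405, adjusted p = 0.441). The share of all genes under 0.05 was 4.86% without the term and 10.9% with it. The Nt5e difference was negative in all 20 alternatives.

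Cd38 (chr5:43868553-43912375, plus strand), whose product makes cyclic ADP-ribose from NAD, was the sort gate: only cells without the protein on their surface were taken, so a level here is no finding on naive or memory cells. Its transcript was still read, at 36.9, 70.3 and 106 in WT (71.0 ± 34.5) and 22.8, 158 and 102 in cKO (94.1 ± 67.7). The spread within cKO, 6.92-fold from lowest to highest, exceeded the difference of the means. The log2 difference was 0.14 (interval -1.39 to 1.67, adjusted p = 0.988), with opposite signs within replicate 1 (-0.67) and within replicates 2 and 3 (0.55). Leaving out WT replicate 1 gave -0.26, cKO replicate 2 gave -0.42 and cKO replicate 3 gave -0.11, all of the opposite sign. On the recovered reads edgeR gave 0.37, DESeq2 0.39 and limma-voom -0.32. Without cKO replicate 1 the Cd38 difference was 0.95.

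The B7 family ligands were the least read of the 9. Cd80 (chr16:38455561-38496335, plus strand), a ligand of CD28 and CTLA4, measured 16.2, 17.0 and 39.3 in WT (24.2 ± 13.1) and 14.6, 39.9 and 28.6 in cKO (27.7 ± 12.6), from only 14 to 46 reads per library. Pdcd1lg2 (chr19:29410919-29471161, plus strand), whose product PD-L2 binds PD-1, measured 20.2, 16.0 and 68.3 in WT (34.8 ± 29.1) and 24.9, 77.8 and 38.8 in cKO (47.2 ± 27.4), from 15 to 80 reads. For both genes WT replicate 3 and cKO replicate 2 were the highest libraries and the groups overlapped. The log2 differences were 0.20 (interval -0.92 to 1.32, adjusted p = 0.977) and 0.57 (-0.79 to 1.93, 0.941). For Cd80 the value was -0.14 within replicate 1 and 0.37 within replicates 2 and 3, and it was -0.017 without WT replicate 1 and -0.11 without cKO replicate 2. Pdcd1lg2 kept its sign, at 0.29 within replicate 1 and 0.71 within replicates 2 and 3, but leaving out cKO replicate 2 gave 0.14, WT replicate 2 gave 0.18 and WT replicate 3 gave 1.19.

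Bank1 was the most read of the 9, with 483 to 1310 reads per library. The gene (chr3:136053363-136326066, minus strand) measured 554, 691 and 1119 in WT (788 ± 295) and 675, 1285 and 987 in cKO (982 ± 305). WT replicate 3 was above cKO replicates 1 and 3. The log2 difference was 0.33 (interval -0.34 to 1.01, adjusted p = 0.933), with 0.28 within replicate 1 and 0.36 within replicates 2 and 3, and it was 0.11 without WT replicate 1 or cKO replicate 2 and 0.62 without WT replicate 3.

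**Figure D3:**
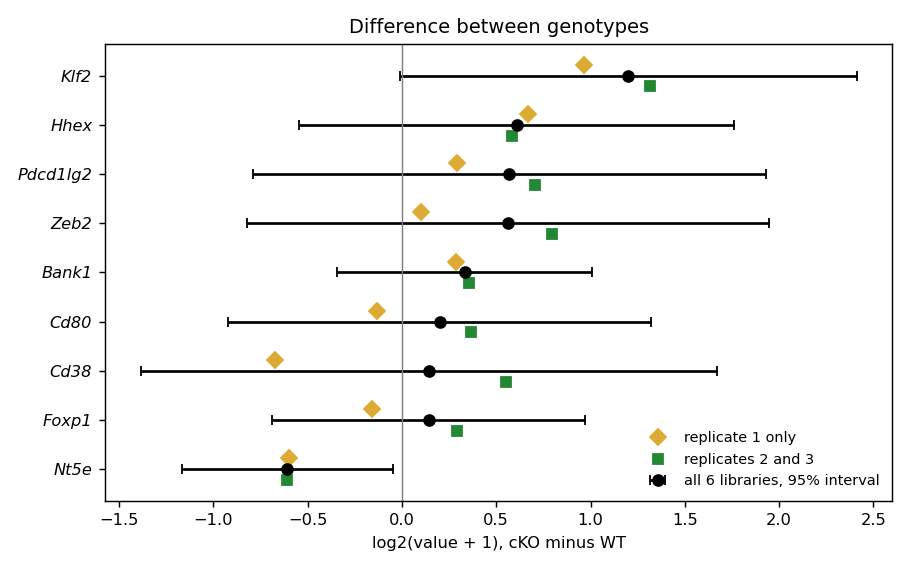
Difference of log2(value + 1), cKO minus WT, for each gene. Black points and bars are the fit over 6 libraries with its 95% interval. Diamonds compare the libraries numbered 1, and squares those numbered 2 and 3, without taking a number as the mark of a pair. The interval lies below 0 for Nt5e and crosses 0 for the other 8, and for Cd38, Cd80 and Foxp1 the diamond and the square lie on opposite sides of 0.

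Per length of merged exons, on the RPKM scale (reads scaled for exon length and library total), the WT order was Bank1 (19.3 ± 6.67), Klf2 (16.0 ± 9.43), Foxp1 (8.49 ± 2.33), Nt5e (5.17 ± 0.962), Cd38 (3.33 ± 1.53), Pdcd1lg2 (3.23 ± 2.62), Hhex (3.01 ± 1.83), Cd80 (1.19 ± 0.616) and Zeb2 (0.598 ± 0.399). Each neighbour in that order overlapped with the next in WT. In cKO, Klf2 had the highest mean level (35.5 ± 21.6 RPKM against 22.7 ± 6.55 for Bank1) and these ranges overlapped too. Nt5e (3.28 ± 0.987 RPKM in cKO) then lay below Hhex (4.25 ± 2.32), Pdcd1lg2 (4.17 ± 2.42) and Cd38 (4.12 ± 2.97) in mean level, with overlap, while every cKO value of Foxp1 lay above every one of Nt5e.

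Of 14 other genes of naive B cells and recirculation, 14 had positive log2 differences (median 0.65), 0 were called by limma and 1 had an unadjusted p under 0.05. That gene was Fcmr, the IgM Fc receptor (1225 ± 163 in WT and 1702 ± 373 in cKO, groups apart). The complement receptor gene Cr2 (1565 ± 529 and 2222 ± 355), the low-affinity IgE receptor gene Fcer2a (1541 ± 538 and 2265 ± 698) and the integrin gene Itgb7 (193 ± 68.5 and 337 ± 205) followed by p, with overlapping groups. Without cKO replicate 2 the median was 0.13 and 11 of 14 were positive. Chosen after its values were seen, the KLF2 target S1pr1 (100.1, 143 and 237 in WT; 115, 617 and 196 in cKO) was highest in cKO replicate 2. So was Ighd, the IgD constant gene (94.5, 374 and 62.4; 148, 1418 and 123), also chosen after its values were seen. In cKO replicate 3, S1pr1 was below its level in WT replicate 3, while Klf2 was above its own.

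Of 12 other genes tied to memory B cells, 9 had positive and 3 negative differences (median 0.38, or 0.18 without cKO replicate 2), with 0 called. At a limma unadjusted p under 0.05, 1 of the 12 was lower and 1 higher (2.17% and 2.98% of all genes). Bach2, a repressor that favours memory over plasma cells, was lower in every cKO library (2220 ± 119 and 1387 ± 218, limma adjusted p = 0.813). Zbtb32, a repressor that limits memory recall responses, was higher in every cKO library (35.1 ± 10.03 and 103.7 ± 57.3, limma adjusted p = 0.915). Ski (34.9 ± 7.12 and 77.8 ± 62.6) and Cd27 (5.08 ± 2.997 and 18.7 ± 20.2) had overlapping groups and were highest in cKO replicate 2. Of 10 genes of GC B cell identity, 9 had negative differences (median -0.32, or -0.16 with 3 of 10 higher without cKO replicate 2) and 0 were called. At a limma unadjusted p under 0.05, 3 of the 10 were lower and 1 was higher, against 2.17% and 2.98% of all genes. Gna13, which restrains GC B cell migration, was lower in every cKO library (2202 ± 127 and 1777 ± 182), and Mybl1 (1729 ± 318 and 1245 ± 176) and Rgs13 (1622 ± 523 and 1089 ± 113) had overlapping groups. The positive gene was Mef2b, which was higher in every cKO library but had at most 5.69 normalized counts in any of them.

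Genes that work beside single members showed no call either. Of the other NAD and adenosine ectoenzymes and receptors, 7 of 8 were tested, 5 higher and 2 lower (median 0.34, but -0.064 without cKO replicate 2), with Enpp1 at 975 ± 101 and 848 ± 151 and adenosine deaminase (Ada) at 960 ± 188 and 788 ± 302. Of 9 tested B7 family genes and receptors, 4 were higher and 5 lower (median -0.0073), with Vsir at 51.3 ± 14.3 and 120 ± 108. Of 10 signalling partners of BANK1, 6 were higher and 4 lower (median 0.033), with the kinase gene Lyn at 1571 ± 68.8 and 1376 ± 133 and Myd88 at 296 ± 11.2 and 334 ± 31.0. Among 7 tested relatives of KLF2, FOXP1 and ZEB2, 4 were higher and 3 lower (median 0.011, but -0.10 with 2 higher without cKO replicate 2). Foxo1, a forkhead factor that maintains the GC dark zone, was lower in every cKO library (1350 ± 165 and 1086 ± 60.9, unadjusted p = 0.0491, adjusted p = 0.915). Klf4, a relative of Klf2, measured 23.8, 94.7 and 209 in WT and 40.7, 271 and 323 in cKO, so replicate 1 was again lowest in both groups.

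Several markers of other cells were high in the library in which 7 of the 9 genes were highest. The 10 T cell markers had a median log2 deviation of 2.56 in cKO replicate 2 and -1.32 to 0.27 elsewhere, and their summed level was 1695 normalized counts there against 619 to 707 in WT and 521 to 769 in the other cKO libraries. Lck, which B cells also express, gave 691 of that sum. Of the 10, 8 had positive differences (median 0.60), and 1 did without cKO replicate 2 (median -0.22). The defining markers Cd3e and Trac measured 140 and 180 in cKO replicate 2 and at most 27.1 and 42.5 elsewhere. The 10 macrophage and monocyte markers had 10 positive differences (median 0.83, or 0.24 with 6 positive without cKO replicate 2), and they summed to 522 in cKO replicate 2, to 114 to 313 in WT and to 304 and 337 in the other cKO libraries. In WT replicate 3 and cKO replicate 3, where the 8 genes besides Nt5e were also above their means, Cd3e measured 5.98 and 6.13, Cd3d 20.5 and 0, and the macrophage list had median deviations of -1.86 and -0.61. Cd3g and Cd8a, named like Cd3d after their values were seen, were also at 0 in cKO replicate 3. In that library 1 read is worth 2.04 normalized counts. The other T cell markers had reads there, among them Trac (12.3), Cd4 (14.3) and Lck (470). Some other markers were high in libraries where the 8 genes were high, and others, given below, were lowest in WT replicate 3 and cKO replicate 3. The erythroid markers summed to 18.8 in WT replicate 3, 9.49 in cKO replicate 2 and 102 in cKO replicate 3, and to 3.25 to 6.57 in the other libraries. Pecam1, an endothelial marker that leukocytes also express, measured 257, 308 and 498 in WT and 303, 636 and 382 in cKO. Cd68, a macrophage marker, was highest in WT replicate 3 (67.5) and cKO replicate 3 (71.5). Lyz2 and Csf1r, the other macrophage markers of highest mean level, had their lowest values in WT replicate 3 (27.3 and 10.3). In cKO replicate 3 Lyz2 had its highest value (194), while Csf1r measured 18.4 there. The 7 plasma cell markers had a median difference of 0.0041, but a median deviation of 0.77 in cKO replicate 2, where they summed to 17942 against 8750 to 14455 elsewhere. Among them Irf4, which activated B cells also express, measured 399, 493 and 1032 in WT and 399, 1287 and 703 in cKO, highest in the same 3 libraries as the 8 genes. The plasma cell list as a whole had median deviations of -0.12 in WT replicate 3 and -0.23 in cKO replicate 3. The 6 NK cell markers summed to 18.8 in WT replicate 3, 32.7 in cKO replicate 3, 148 in cKO replicate 2 and 48.0 to 105 in the others. Neutrophil markers summed to 0.854 in WT replicate 3 and 18.4 in cKO replicate 3, against 83.4 to 125 in the others. The part of other cells in the values of the 8 genes was not tested. The B220+ CD38- FAS+ gate should remove T cells, macrophages and the CD38+ naive and memory B cells, and its purity was not measured here. In bulk RNA, a larger share of naive or memory cells in the sort and more transcript per GC B cell cannot be told apart.

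**Figure D4:**
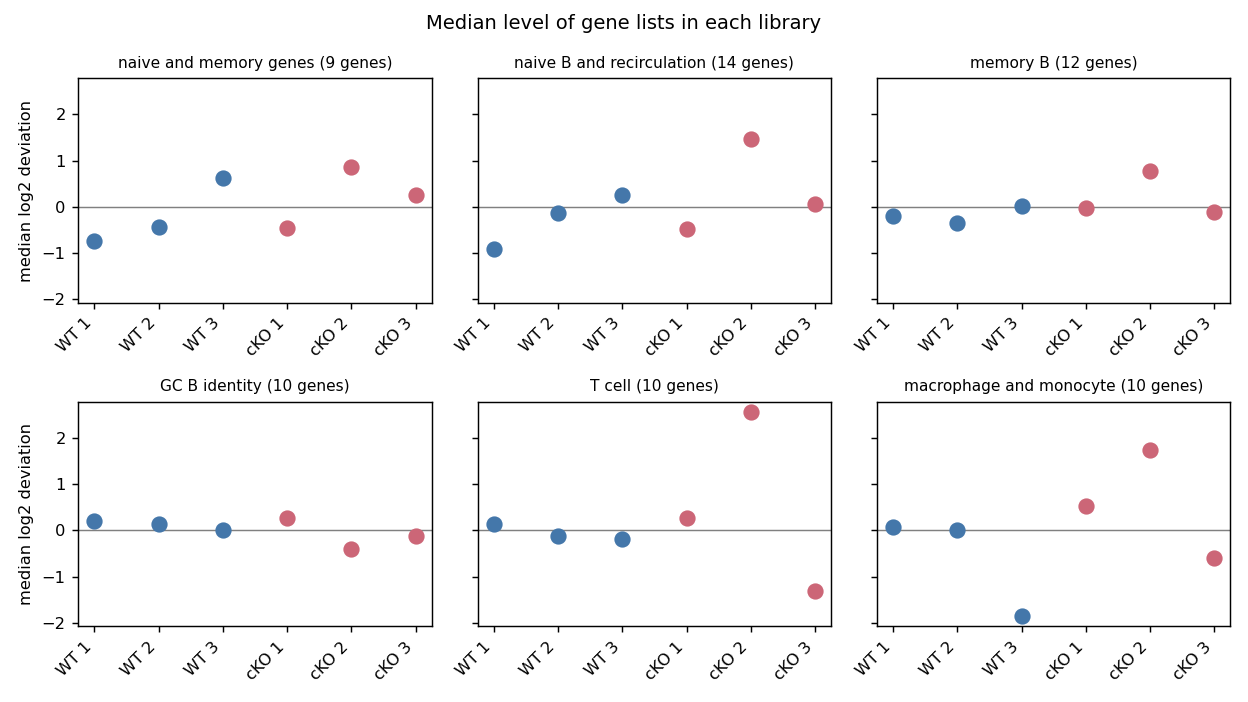
Median log2 deviation from the 6-library mean (vertical axis) of the tested genes of 6 lists in each library, WT in blue and cKO in red. The naive and memory genes are low in WT replicate 1 (-0.75), cKO replicate 1 (-0.46) and WT replicate 2 (-0.43). They are high in WT replicate 3 (0.62), cKO replicate 2 (0.85) and cKO replicate 3 (0.25). The T cell list stands at 2.56 in cKO replicate 2 and at no more than 0.27 in the other libraries.

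Likeness between profiles was taken as the mean absolute difference between log2 deviations over the 6 libraries, among 8089 other genes with a mean of at least 50. Nearest to Klf2 was Pml (0.15, where the median gene lay at 0.87), then Gpr132 and Egr3 (0.23 each). Nearest to Nt5e were Ssx2ip (0.061) and Flt3 (0.11), where the median was 0.36. Nearest to Bank1 were Itpr1 (0.048), Chd2 and Gimap8 (0.060 each), to Hhex B3gnt5 (0.12), to Foxp1 Zfp141 (0.075), to Cd80 Man1a (0.062), to Pdcd1lg2 Bhlhe41 (0.11), to Zeb2 Rhob (0.099) and to Cd38 Ms4a4c (0.12). Among the 9 themselves the closest pair was Bank1 and Foxp1 (0.17), and the farthest was Nt5e and Zeb2 (1.08). All these distances share the same 6 libraries and are a description.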

How the data were processed

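RNA sequencing of 6 libraries was grouped by the titles in the labels. Per the submitters' processing notes, mm10 was the genome build and DESeq2, HTSeq, SAMtools, HISAT, HISAT2 and TopHat2 the tools, without versions or roles. The authors deposited, per the file headers, a mean and a per-library signal (counts divided by a size factor), a log2 fold change with its standard error, a test score, and p-values. All values of each library were whole multiples of 1 read (tolerance 0.01), so reads were recovered. 1 read is worth 0.506 to 2.04 normalized counts.

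limma 3.58.1 (R 4.3.3, mean-variance trend) was fitted to log2(value + 1) of 14678 genes with a mean of at least 1, with genotype as the only term and adjustment over all of them (Benjamini-Hochberg). Folds are on this scale and understate changes of low genes. Recovered reads were also tested with DESeq2 1.42.0, edgeR 4.0.16 and limma-voom. The scripts were tested on simulated data. RPKM used merged exons of GENCODE M21 (GRCm38). The genes and lists were chosen with earlier results of these data known. Beside the 9 genes and Senp1, up to 4 genes per list were named by smallest p, markers by level, and up to 3 genes per member by likeness. Some genes that these rules name are not reported here.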

Additional observations from a re-analysis of the deposited data

How the results depend on the processing

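Over 20 alternatives, none of the 9 genes was called in any of the 19 that had a test. Klf2, Nt5e, Pdcd1lg2, Hhex, Bank1 and Zeb2 kept their direction in all 20. The number of the 9 that were higher in cKO was 8 in the fit over all 6 libraries, 5 within replicate 1 and 6 by limma-voom. It was also 6 with a term for replicate 1 and cKO replicate 2 left out. With single libraries left out it ranged from 5, without WT replicate 1 or cKO replicate 2, to 8. The sign turned within replicate 1 for Cd38 (-0.67), Cd80 (-0.14) and Foxp1 (-0.16). By limma-voom it turned for Cd38 (-0.32) and Cd80 (-0.042). With single libraries left out, the log2 difference ranged from -0.42 to 0.95 for Cd38, -0.11 to 0.60 for Cd80 and -0.16 to 0.55 for Foxp1, with the lowest values without cKO replicate 2. With a term for replicate 1 and cKO replicate 2 left out, an alternative added after seeing the data, Cd38 was at -0.15 and Foxp1 at -0.0090. The count of all genes called, 0 by limma (756 at an unadjusted p under 0.05) and by edgeR (611) and limma-voom (558), was 20 by DESeq2, 3 with a term for replicate 1, 1 with the replicate block and 16 in the added alternative. The causes were not tested.

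Deviations from the group means had correlations over genes of 0.49, 0.055 and 0.20 between the WT and cKO libraries numbered 1, 2 and 3. cKO replicates 1 and 3 correlated best with their own number and cKO replicate 2 did not (0.17 with WT replicate 3). With 3 libraries per group this check cannot decide whether the replicate number marks a pair. With the replicate block the median of the 9 stayed at 0.33 and the number at an unadjusted p under 0.05 was 2, Nt5e and Klf2, while the share of all genes at that threshold went from 5.15% to 9.08%. The limma model across all genes with that block gave Nt5e an adjusted p = 0.429 (unadjusted 0.00855) and Klf2 an adjusted p = 0.388 (unadjusted 0.00466). Depth limits Cd80 and Pdcd1lg2 most.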
